A study of Mus musculus with 4 samples.

Results

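Cytochrome c oxidase, complex IV of the mitochondrial respiratory chain, passes electrons from cytochrome c to oxygen. Several of its nuclear-encoded subunits exist as tissue isoforms from separate genes. Liver and most other tissues use one isoform of each pair, while heart and skeletal muscle, and for some subunits brown fat, use another. The 8 genes described here are the liver-type isoforms Cox4i1, Cox6a1, Cox7a2 and Cox8a, the muscle-type isoforms Cox6a2, Cox7a1 and Cox8b, and Cox4i2, a subunit IV isoform known from lung and for its induction by low oxygen. They were taken as the gene probes that carry one of these symbols in the scanner files, which gave 9 of 39429 probes and 8 of 30439 genes. Cox8a has 2 probes and every other gene has 1. The group was chosen on measured values, namely the genotype differences of these arrays, in the knowledge that Cox8b was among the largest of them, so the members' genotype differences are a description and carry no test.

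Whole-liver RNA of male C57BL/6J mice was hybridized to 4 one-color Agilent arrays, with 1 array for each of 4 groups. The groups crossed genotype, control (Cont, labelled wild type) or Drp1LiKO (labelled knockout), with feeding state, fasted or refed. Cont mice are Drp1 flox/flox littermates without Cre, and Drp1LiKO mice are Alb-Cre Tg/+ Drp1 flox/flox. The latter lack the mitochondrial fission protein Drp1 in the cells where the albumin promoter drives Cre, mainly the hepatocytes. Liver cells in which Cre is not active keep Drp1. All mice had a high-fat diet, begun at 4 weeks of age and given for 24 weeks by the labels. The refed livers followed a fast of 17 h and a meal period of 4 h. For the remaining 2 livers a feeding state is missing from the labels, and they are called fasted here from the description of the experiment. Neither the labels nor the methods say whether an array holds RNA from 1 mouse or from several.

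The 75th percentile of the gene spots, to which signals were scaled, ran from 357 to 722 among the arrays and was higher on the Drp1LiKO array of each pair. Between 48.7% and 58.2% of the 43020 gene spots were well above background by the scanner software, and none was saturated. Dnm1l, which encodes Drp1, was well above background on 4 of 4 arrays, with log2 levels of 1.02 and 0.81 in the fasted and 0.66 and 0.54 in the refed Cont and Drp1LiKO livers. Its 1 probe is not known to lie in the deleted part, so these levels do not check the labels. Hepatocyte markers were well above background on every array for 7 of the 7 that were found. One array stood apart. On the fasted Cont array, 12 of 14 skeletal muscle markers were well above background, against 3 or 4 on each of the other arrays, and 8 of them were so on that array only. The fasted genotype differences are therefore given beside those of the refed pair, which does not use this array. Refeeding in Cont livers has no counterpart free of it.

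Probe sequences from the scanner files are shown for the 3 muscle-type isoforms and for Cox8a, because the isoform differences rest on single probes of 60 bases. The Cox7a1 probe, at mm9 chr7:30970337-30970948 on the plus strand, covers 612 bases of genome and so bridges a gap between exons. For the others, the last 30 bases are printed. Capitals mark a polyadenylation hexamer, which places the Cox8b probe (mm9 chr7:148084852-148084911, minus strand) and the Cox8a probe (mm9 chr19:7289652-7289708, minus strand) at the ends of their transcripts. The Cox6a2 probe lies at mm9 chr7:135349160-135349219 on the minus strand.
Cox7a1: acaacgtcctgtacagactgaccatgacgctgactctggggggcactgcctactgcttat
Cox8b: cacatccctgagagatttcATTAAAcatgt
Cox8a: gtaacAATAAAgtctatttaaaccttgaaa
Cox6a2: ggctctgagagcccctgaggttccagtgga
The probe of a muscle-type isoform and that of its liver-type partner shared no run of bases longer than 6, and the Cox4i2 and Cox4i1 probes none longer than 7.

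Of the 8 genes, promoter sequences of RefSeq (GRCm38.p6) were at hand for 5. The 250 bases before the transcription start are printed for the muscle-type genes Cox8b and Cox7a1, whose levels were lower in both Drp1LiKO livers, and for Cox8a as the liver-type partner.
Cox8b, chr7:140900447-140900696, minus strand: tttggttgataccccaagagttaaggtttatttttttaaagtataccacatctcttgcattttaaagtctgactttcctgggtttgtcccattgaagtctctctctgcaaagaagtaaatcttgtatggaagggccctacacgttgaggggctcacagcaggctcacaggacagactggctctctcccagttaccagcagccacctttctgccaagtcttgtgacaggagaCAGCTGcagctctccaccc
Cox7a1, chr7:30183921-30184170, plus strand: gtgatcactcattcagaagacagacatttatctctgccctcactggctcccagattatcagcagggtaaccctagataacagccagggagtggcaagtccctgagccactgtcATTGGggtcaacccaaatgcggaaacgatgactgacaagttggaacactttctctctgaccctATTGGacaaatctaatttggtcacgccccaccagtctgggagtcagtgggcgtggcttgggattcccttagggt
Cox8a, chr19:7217617-7217866, minus strand: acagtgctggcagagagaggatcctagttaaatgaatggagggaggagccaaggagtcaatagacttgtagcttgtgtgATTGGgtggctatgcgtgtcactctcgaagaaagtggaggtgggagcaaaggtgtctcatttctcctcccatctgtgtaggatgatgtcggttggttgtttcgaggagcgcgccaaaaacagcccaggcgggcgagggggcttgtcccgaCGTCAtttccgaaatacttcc
Capitals mark the muscle E-box CAGCTG in Cox8b, CCAAT read on the reverse strand in Cox7a1 and Cox8a, and the CRE core TGACG, also reversed, in Cox8a. Among 32851 promoters of this length, 13.0% hold CAGCTG, 33.8% CCAAT and 17.8% TGACG on either strand. Cox6a1, a liver-type gene, holds 2 matches to the NRF-1 motif, found in 3.74% of promoters, and 1 to the ETS motif CCGGAAG, found in 6.91%. NRF-1 and ETS factors are known regulators of respiratory chain genes. None of the 5 promoters holds the nuclear receptor hexamer AGGTCA (in 14.0% of promoters), which is contained in the longer ERR motif TCAAGGTCA and in its own direct repeat, nor the MEF2 motif (3.20%) or TATAAA (12.4%). Among these 5 promoters, CG dinucleotides were fewer in the muscle-type genes. Cox8b has 1 and Cox7a1 has 4, while Cox8a has 11, Cox7a2 14 and Cox6a1 26, around a median of 6 over all promoters. The promoters of Cox6a2 and Cox4i1 were not at hand. These are counts of letters in short windows and say nothing of binding.

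All 8 genes were well above background on 4 of 4 arrays. Levels below are log2 signals relative to the 75th percentile of the array, and they are compared between arrays for 1 gene at a time, since different probes do not share a scale. With 1 array for each group there is no replicate check, and each SE (standard error) covers the scanner's measurement error only. Within these limits the liver-type genes differed little between genotypes and the muscle-type genes differed strongly.

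**Figure D1:**
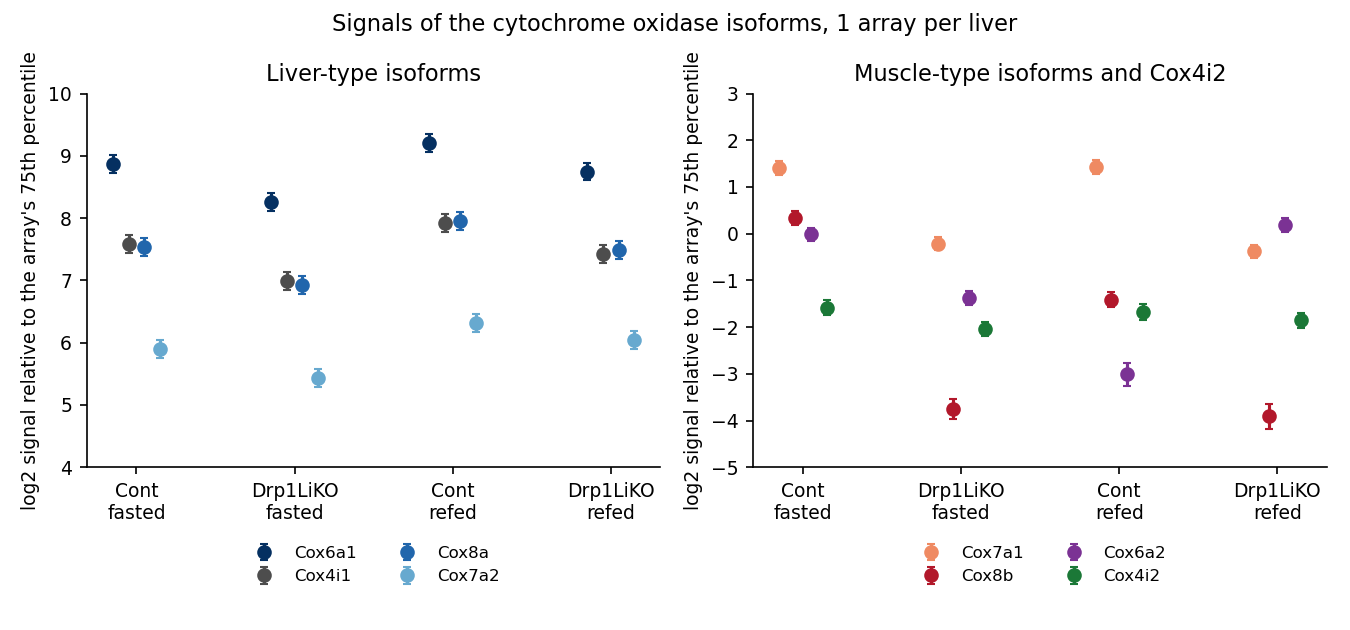
Log2 signal of each isoform over the array's 75th percentile (y axis) on the 4 arrays (x axis), with bars for the scanner's measurement SE and 1 array per group. On this scale the liver-type genes at left are highest in the refed Cont and lowest in the fasted Drp1LiKO liver. Those arrays have the lowest and the highest 75th percentile. At right, Cox8b spans 4.24 log2 units and Cox6a2 3.20. Heights are comparable within a gene only.

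Cox8b encodes subunit VIII in heart, skeletal muscle and brown fat. Its level was 0.33 in the fasted Cont liver, -3.75 in the fasted Drp1LiKO liver, -1.41 in the refed Cont liver and -3.91 in the refed Drp1LiKO liver. Both Cont livers thus lay above both Drp1LiKO livers, and the Drp1LiKO levels were nearly the same in the 2 feeding states. Drp1LiKO minus Cont, the fasted difference was -4.08 (SE 0.26), or 16.9-fold lower, and the refed difference -2.50 (SE 0.31), or 5.67-fold lower. The deposited signals behind these levels were 580 and 53.7 units after fasting and 134 and 34.9 after refeeding. The Drp1LiKO signals sat near the dimmest signals called well above background on their arrays, 26.6 and 22.5 units, so their ratios are imprecise. With normexp background correction, which adds an offset, the differences were -2.94 and -1.40.

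Cox7a1 encodes the subunit VIIa isoform of heart and skeletal muscle and is also a mark of brown fat. Its levels were 1.40 and 1.43 in the fasted and refed Cont livers and -0.21 and -0.38 in the Drp1LiKO livers. The 2 Cont livers differed by 0.03 (SE 0.20), within the measurement error, and each lay well above both Drp1LiKO livers. The genotype difference was -1.62 (SE 0.20) after fasting, 3.07-fold lower, and -1.81 (SE 0.21) after refeeding, 3.51-fold lower. Of the 3 muscle-type genes, Cox7a1 was the one whose genotype difference was alike in the 2 feeding states.

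Cox6a2 encodes the heart and muscle isoform of subunit VIa and behaved differently. Its level was -0.02 in the fasted Cont, -1.37 in the fasted Drp1LiKO, -3.01 in the refed Cont and 0.19 in the refed Drp1LiKO liver. The highest level was thus in a Drp1LiKO liver and the lowest in a Cont liver, both refed. In fasted livers the genotype difference was -1.35 (SE 0.21), 2.55-fold lower, and in refed livers it was 3.20 (SE 0.29), 9.17-fold higher. The change of this difference with feeding, 4.55 (SE 0.35), could not be tested against variation between mice. The refed Cont signal, 44.4 units, was near the dimmest called well above background on its array, 30.5 units. Ratios to it are imprecise, and with normexp the refed difference was 2.09.

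On the scaled values the 4 liver-type genes moved together. Cox4i1, the subunit IV isoform of most tissues, had levels of 7.59 and 6.996 in the fasted and 7.92 and 7.42 in the refed Cont and Drp1LiKO livers. Cox6a1 (subunit VIa) had 8.86, 8.26, 9.21 and 8.75 in the same order, and Cox7a2 (subunit VIIa) had 5.90, 5.44, 6.32 and 6.04. Cox8a (subunit VIII) had 7.54, 6.93, 7.95 and 7.49, and its second probe gave genotype differences within 0.02 of the first. On this scale every one of them was highest in the refed Cont liver and lowest in the fasted Drp1LiKO liver. These are the arrays with the lowest and the highest 75th percentile, 357 and 722, by which signals were divided. Before scaling, none of the 4 was highest in the refed Cont or lowest in the fasted Drp1LiKO liver, so this order comes with the scaling.

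The liver-type genotype differences ran from -0.61 (Cox8a) to -0.46 (Cox7a2) after fasting and from -0.51 (Cox4i1) to -0.28 (Cox7a2) after refeeding, each with an SE of 0.20. None reached 2-fold. The signs of these differences depend on the scaling of the arrays. In the deposited signals without scaling, the fasted differences ran from 0.04 to 0.19 and the refed from 0.05 to 0.28, all above 0. The median of 14447 genes was higher there, at 0.53 after fasting and 0.48 after refeeding. With quantile normalization the fasted differences shrank to between -0.24 (Cox8a) and -0.12 (Cox6a1). Before scaling, the highest of the 4 signals was 1.06 times the lowest for Cox4i1, 1.07 times for Cox6a1, 1.102 times for Cox8a and 1.26 times for Cox7a2. The median difference of bright genes also changed sign with the scaling. For the 1401 genes with a mean level of at least 5, it was -0.32 after fasting and -0.13 after refeeding. Without scaling it was 0.33 and 0.43. The liver-type differences lay below these medians in both feeding states, with and without scaling.

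Cox4i2 is one of the isoforms of subunit IV, known from lung and vessel-associated cells. Its levels were -1.58 and -2.04 in the fasted and -1.67 and -1.86 in the refed Cont and Drp1LiKO livers, a span of 0.45. Between genotypes it differed by -0.45 (SE 0.22) in fasted and by -0.18 (SE 0.23) in refed livers. Without scaling these values turned positive, to 0.20 and 0.38, where the median of 14447 genes was 0.53 and 0.48. Pericytes, in which Cox4i2 is found in many tissues, were followed by 7 markers. After fasting 6 could be compared and went both ways without reaching 2-fold, with Rgs5 1.96-fold and Kcnj8 1.93-fold higher and Higd1b 1.89-fold lower in the Drp1LiKO liver. After refeeding 5 were measured on both arrays and none reached 2-fold. Des and Cspg4 were well above background in the refed Drp1LiKO but not the refed Cont liver, and their bounds gave no difference. Over all genes, 5.04% were called lower and 4.32% higher after fasting, and 6.33% and 4.03% after refeeding.

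**Figure D2:**
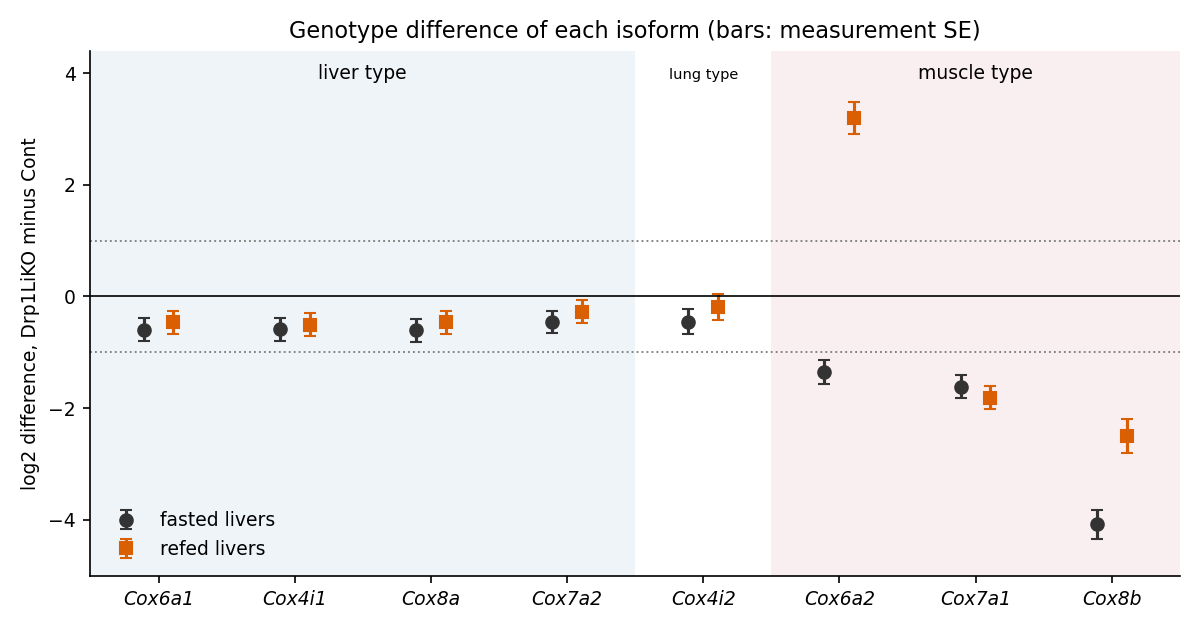
Log2 difference between the Drp1LiKO and the Cont liver (y axis) for each isoform (x axis) after fasting (circles) and after refeeding (squares), with bars for the measurement SE, dotted lines at 2-fold and shading by isoform type. The 4 liver-type genes and Cox4i2 stay inside the 2-fold lines, and the 3 muscle-type genes lie outside them in both feeding states, Cox6a2 on opposite sides.

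At a threshold of 2-fold, with a signal that was not well above background read at its bound, 3 of 3 muscle-type genes and 0 of 4 liver-type genes were called in each feeding state. After fasting, the 3 were lower, where 5.04% of 18040 genes were called lower and 4.32% higher. After refeeding, 2 were lower and 1 was higher, where 6.33% of 17446 genes were called lower and 4.03% higher. Because the members were chosen with these differences known, nothing is read from their number against these shares. The split of all calls depends on the scaling. The share of calls that were higher in the Drp1LiKO liver was 46.1% after fasting and 38.9% after refeeding, 62.3% and 46.5% when the percentile was taken over probes well above background on all arrays, and 89.5% and 83.3% without scaling.

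The balance within a pair of isoforms does not depend on a scaling factor, which cancels between 2 genes of the same array. Relative to Cox8a, Cox8b was lower in the Drp1LiKO liver by a log2 value of -3.47 (SE 0.33) after fasting, 11.1-fold, and of -2.04 (SE 0.37) after refeeding, 4.11-fold. Relative to Cox7a2, Cox7a1 was lower by -1.16 (SE 0.29) and -1.53 (SE 0.29), or 2.23-fold and 2.90-fold. In both pairs the Drp1LiKO livers of both feeding states had less of the muscle-type transcript per liver-type transcript than the Cont livers.

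Cox6a2 relative to Cox6a1 was -0.75 (SE 0.29) in fasted and 3.66 (SE 0.35) in refed livers, the second 12.6-fold higher in the Drp1LiKO liver. The refed value rests on the dim Cox6a2 signal of the refed Cont liver and was 2.46 with normexp. The subunit IV pair hardly shifted: Cox4i2 relative to Cox4i1 was 0.14 (SE 0.30) and 0.32 (SE 0.31), both within 2 SEs of 0. The signs of the other 3 pairs were the same under 9 of 9 alternative settings of the processing in each feeding state. Settings that only rescale an array leave these values unchanged by construction. Apart from small shifts through the 2 probes of Cox8a, the values moved only with normexp, quantile normalization and the authors' table. That table is itself nearly a quantile normalization, so few of the 9 settings were separate checks. The values of Cox7a1 against Cox7a2 stayed between -1.45 and -1.04 after fasting and between -1.61 and -1.49 after refeeding.

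**Figure D3:**
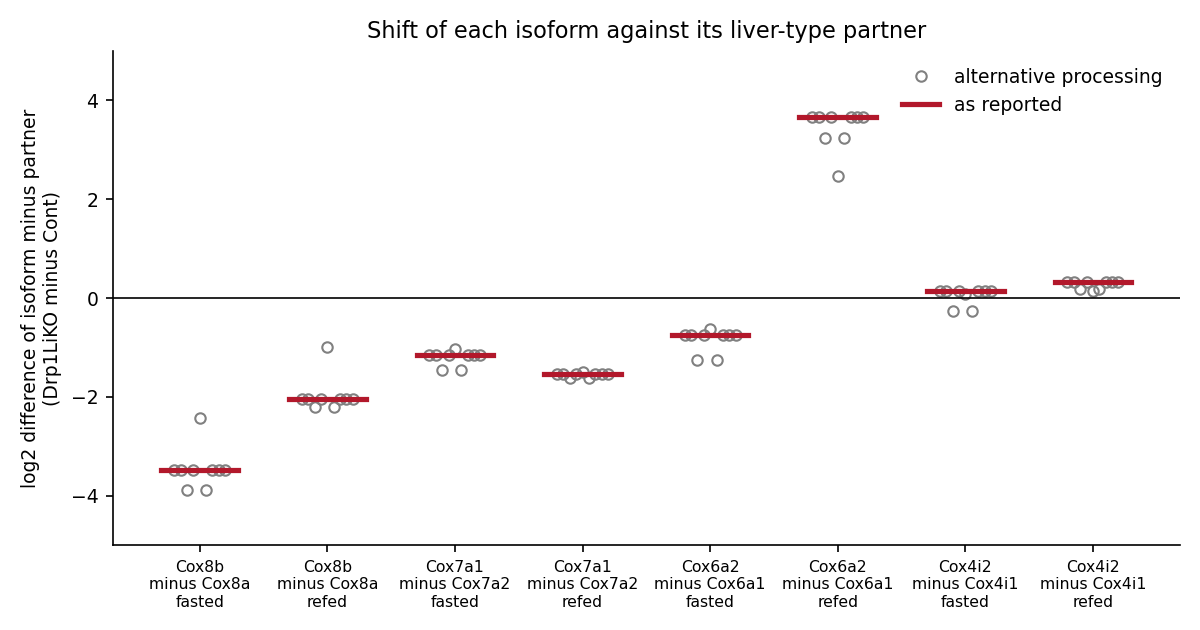
Genotype difference of an isoform minus that of its liver-type partner, in log2 units (y axis), for the 4 pairs in each feeding state (x axis); bars give the reported value and open circles the 9 alternative ways of processing. The Cox8b and Cox7a1 pairs lie below 0 throughout. The Cox6a2 pair lies below 0 after fasting and above 0 after refeeding, and the Cox4i2 pair near 0. Alternatives that only rescale an array give the reported value by construction.

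Refeeding was compared within each genotype, and these comparisons share arrays with those above. In Cont livers, Cox8b was 1.74 lower (SE 0.22) and Cox6a2 2.99 lower (SE 0.29) on the log2 scale after refeeding, whereas Cox7a1 differed by 0.03. In this comparison 3.69% of 16437 genes were called 2-fold lower and 3.49% higher. The Cox6a2 difference rests on the dim refed Cont signal. In Drp1LiKO livers, Cox8b differed by -0.16 (SE 0.34) and Cox7a1 by -0.17 (SE 0.21), while Cox6a2 was 1.56 higher (SE 0.21), where 4.51% of 18329 genes were called 2-fold higher and 4.74% lower. On the same Cont arrays, 8 of 12 skeletal muscle markers were also called lower after refeeding, all but 1 of them as bounds, and Tnni2 differed by -3.92 (SE 0.26). The part of this in the Cont values of Cox8b and Cox6a2 was not tested. Feeding state went with a large difference in Cox6a2 in both genotypes, in opposite directions, and with one in Cox8b in Cont livers. The liver-type genes were between 0.34 and 0.42 higher in Cont livers and between 0.42 and 0.60 higher in Drp1LiKO livers on the scaled values. Their signals before scaling differed by the factors of at most 1.26 given above.

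The remaining genes of complex IV were taken from lists of other subunits and of assembly factors. Of 14 other subunits, 11 were on the array and 9 were well above background. Their median genotype difference was -0.44 after fasting and -0.37 after refeeding, with 9 of 9 below 0 and none at 2-fold. Over all genes measured on both arrays the medians were -0.12 and -0.08. For genes with a mean level of at least 5, which most of these subunits had, they were -0.32 and -0.13. After fasting the subunits ran from -0.68 for Cox7b to -0.01 for Cox6b2, a testis-type isoform of subunit VIb. Cox7b2 and Cox8c, isoforms known from testis, were not well above background on any array. Without scaling the medians of the subunits were 0.21 and 0.19, and those of 14447 genes 0.53 and 0.48.

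The assembly factors insert copper and heme into the enzyme or stabilize its first subunits. Of 24 listed, 22 were on the array and 21 well above background, with a median difference of -0.30 after fasting and -0.05 after refeeding. These medians turned positive, to 0.35 and 0.51, without scaling, where the median of 14447 genes was 0.53 and 0.48. The only one called between genotypes was Sco2, a copper chaperone for the catalytic core, which was 1.07 lower (SE 0.20) in the refed Drp1LiKO liver and -0.39 (SE 0.20) after fasting. A single call among 21 is no more than the 6.33% of all genes called lower in that comparison. Chchd2, a regulator known to bind the Cox4i2 promoter, was -0.55 (SE 0.20) and -0.30 (SE 0.20).

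After fasting, 11 of 12 skeletal muscle markers were called lower in the Drp1LiKO liver, most of them seen on the fasted Cont array only. The 3 muscle-type isoforms were also lower there. After refeeding, 0 of 4 markers were called, where 6.33% of all genes were called lower and 4.03% higher. Of the 3 isoforms, Cox8b and Cox7a1 were called lower and Cox6a2 higher there. The summed signal of the 14 muscle markers, in multiples of the 75th percentile, was 12.2 on the fasted Cont array, 1.17 on the fasted Drp1LiKO, 2.61 on the refed Cont and 1.51 on the refed Drp1LiKO array. Tnnc2, fast troponin C, was at least 88.1-fold and Acta1, skeletal alpha-actin, at least 28.6-fold lower in the fasted Drp1LiKO than in the fasted Cont liver. The 8 markers seen on that array only had to be lower on the others, and their differences are bounds. Of the 4 measured on both fasted arrays, Tnni2 differed by -4.18 (SE 0.22), Tnnt1 by -1.61 (SE 0.21), Pvalb by -1.35 (SE 0.21) and Atp2a1 by -0.05 (SE 0.34), in a comparison where 5.04% of all genes were called lower. On the refed pair, which does not use that array, Tnnt1 differed by -0.86 (SE 0.21), Pvalb by -0.95 (SE 0.21) and Tnni2 by -0.22 (SE 0.27). Atp2a1 was well above background there in the Drp1LiKO liver only, and its bound gave no difference. Mylpf and Actn3 were not well above background on any array. The part of muscle RNA in the fasted Cont values was not tested, and in bulk RNA more cells of a type and more RNA per cell cannot be told apart.

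The levels of the 3 isoforms on the other arrays can be set beside the same markers. Cox7a1 was as high in the refed as in the fasted Cont liver. The 3 muscle markers well above background in the refed Cont liver were Tnnt1, Tnni2 and Pvalb, and 2 of them ran the way of Cox7a1. Tnnt1, slow troponin T, was at 0.35 and 0.16 in the fasted and refed Cont and at -1.27 and -0.70 in the Drp1LiKO livers. Pvalb, a calcium buffer of fast fibers, was at -0.09 and -0.08 in the Cont and -1.45 and -1.02 in the Drp1LiKO livers. The refed Cont liver was thus not free of muscle marker signal. Neither were the Drp1LiKO livers, where these 3 markers were also well above background. Atp2a1 was so in both Drp1LiKO livers but not in the refed Cont liver. The part of muscle RNA in the Cox7a1 and Cox8b differences was not tested. Cox8b, at -1.41 in the refed Cont liver, was 5.67-fold above the refed Drp1LiKO liver. The Cox8b signal of that Drp1LiKO liver was near the dimmest called well above background. With normexp the Cox8b difference was -1.40. Cox6a2 was highest in the refed Drp1LiKO liver, where the summed marker signal was 1.51 and Tnnc2, Acta1, Ckm, Myh1, Myh2, Myh4, Tnnt3 and Myl1 were not well above background. Of 5 cardiac markers, Myl2, shared by heart and slow muscle, was well above background in both Cont livers (-2.19 and -1.88) and in neither Drp1LiKO liver. Myh6 was so on every array but the refed Cont and Myl7 on every array but the fasted Cont, and Nppa and Tnni3 on none.

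Other muscle-type mitochondrial genes followed no single pattern. Ckmt2, the sarcomeric mitochondrial creatine kinase, was at -0.89 in the fasted Cont liver and not well above background on the other arrays, a difference of at least 14.6-fold after fasting. Fabp3, the heart fatty acid binding protein, differed by -2.25 (SE 0.21) in fasted livers and was at least 0.61 (SE 0.53) higher in refed Drp1LiKO than in refed Cont liver, where the bound lies within 2 SEs of 0. Slc25a4, the heart-type ADP/ATP carrier, was -0.13 (SE 0.06) and 0.08 (SE 0.06), and Cpt1b, the muscle carnitine palmitoyltransferase, was 0.43 (SE 0.22) and -0.73 (SE 0.34).

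Markers of fat were mixed. The adipocyte-defining genes Adipoq, Lep, Retn and Plin1 were not well above background on any array, and the other 4 of the 8 adipocyte markers were well above background on all 4. Among these 4, Cfd (adipsin) was at 2.08 and 4.45 in the fasted and refed Cont livers and at -2.99 and -1.83 in the Drp1LiKO livers, and none of the other 3 differed 2-fold. The summed signal of the list was 7.09 and 25.0 in the Cont and 2.91 and 3.91 in the Drp1LiKO livers. It was higher in the Cont livers, as Cfd was, but by less than the 33.6-fold and 77.3-fold of Cfd. In the Drp1LiKO livers Fabp4, at 1.30 and 1.74, gave more of the sum than Cfd. Of 10 brown fat markers, 4 were well above background on every array, and they went different ways. Cidea, a lipid droplet protein that also appears in fatty liver, had 2.08 and 4.29 in the Cont and -1.04 and -1.81 in the Drp1LiKO livers. Elovl3, a fatty acid elongase, differed by -0.86 (SE 0.20) in fasted and -1.45 (SE 0.20) in refed livers, while the coactivator Ppargc1a differed by 0.13 (SE 0.21) and 0.30 (SE 0.22) and Zic1 by -0.19 (SE 0.39) and -0.03 (SE 0.36). Ucp1, the uncoupling protein that defines brown fat, was well above background in the fasted Cont liver only, at -2.93. Ebf2 was so in the fasted and Otop1 in the refed Drp1LiKO liver only. Prdm16, Dio2 and Kcnk3 were not well above background on any array. The part of fat cells in the isoform values was not tested.

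**Figure D4:**
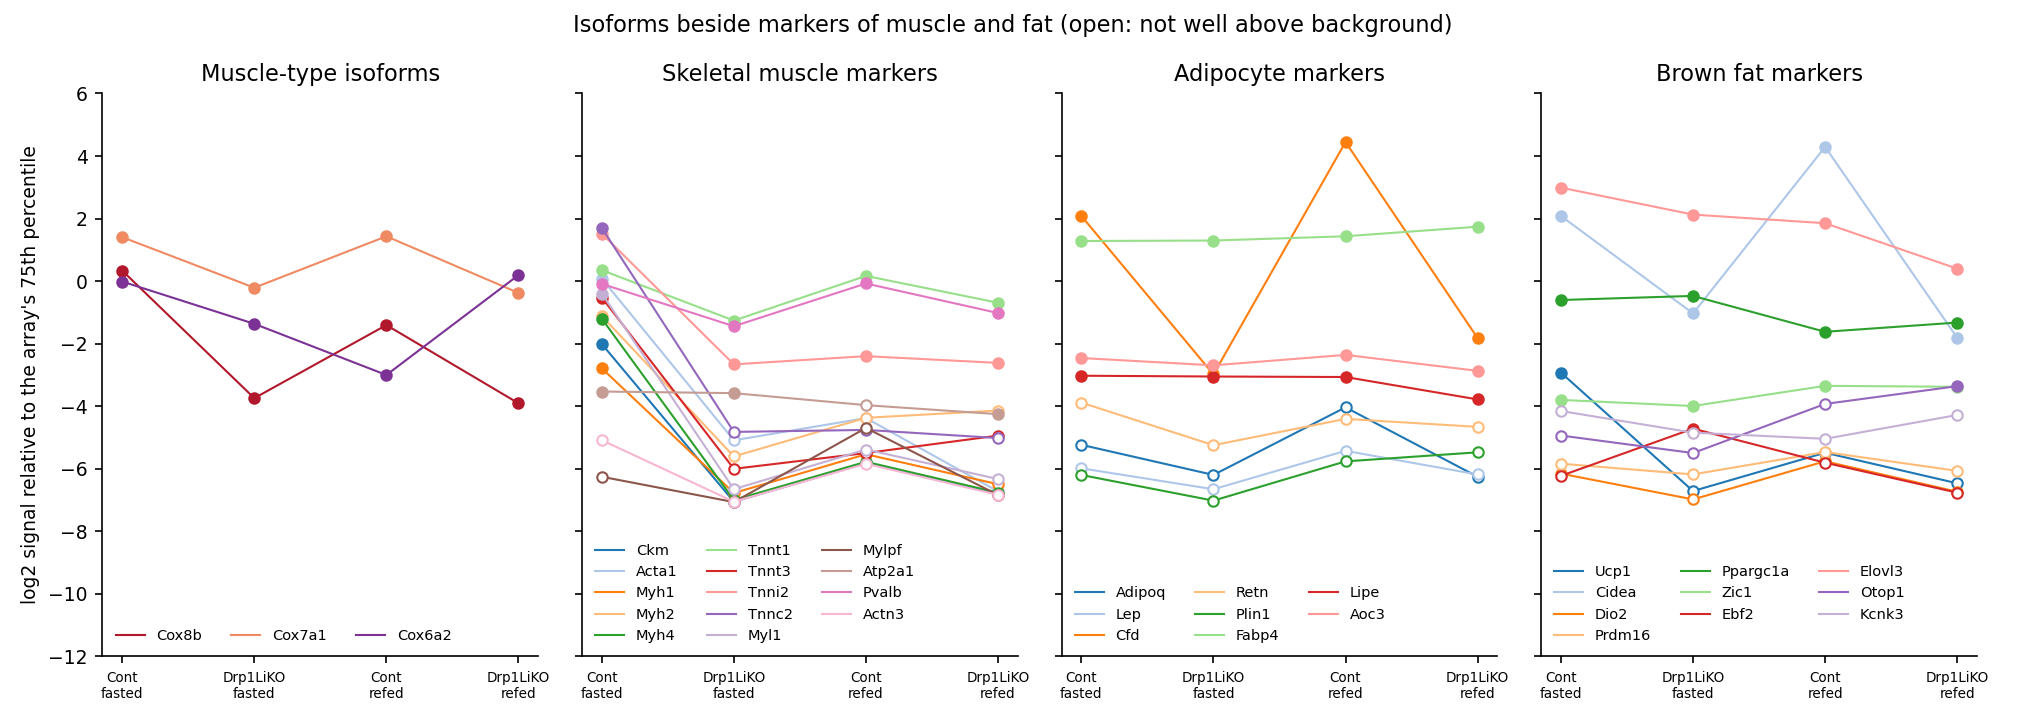
Log2 signals relative to the 75th percentile of the array (y axis) of the muscle-type isoforms and of every listed skeletal muscle, adipocyte and brown fat marker on the 4 arrays (x axis), with filled points well above background and open points not. Of the 14 muscle markers 8 are filled in the fasted Cont liver alone, while Tnnt1 and Pvalb are high in both Cont livers, as are Cidea and Cfd among the fat markers.

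The genes most like a member were sought among the 18963 genes with a signal well above background anywhere, by the root mean square distance between log2 profiles centered over the 4 arrays, for the 4 members that spanned at least 1 log2 unit. The closest 5 to Cox7a1 were Hamp2, Rcan2, BC024139, the unnamed transcript NAP028495-1 and March9, at distances from 0.08 to 0.10. Hamp2, a paralogue of the iron hormone hepcidin, had 1.16 and 1.42 in the fasted and refed Cont and -0.40 and -0.52 in the Drp1LiKO livers. Rcan2, a calcineurin regulator, had 0.43 and 0.51 in the Cont and -1.26 and -1.19 in the Drp1LiKO livers. Like Cox7a1, both were nearly level between feeding states within a genotype.

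The closest to Cox8a were Fignl2, Ndufb9 (a complex I subunit), Ahnak and the transcripts A_55_P2182790 and ENSMUST00000127261, at distances from 0.01 to 0.02. Before scaling, the highest Cox8a signal was 1.102 times the lowest. Its span of at least 1 log2 unit thus came mostly with the scaling. Any gene of nearly constant signal before scaling has such a profile, so these matches do not set Cox8a apart. No gene lay as close to Cox8b or Cox6a2, and nothing is read from that contrast. The nearest to Cox8b were 3110082D06Rik, Olfr214, Npffr1, Zscan4c and Tcp10a, from 0.27 to 0.33, each well above background on 1 array. The nearest to Cox6a2 were Slfn10-ps, ENSMUST00000103518, LOC100504462, Olfr1079 and Rhox3a, from 0.26 to 0.38, each well above background on 2 or 3 arrays. With 4 points, such likeness is a description.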

How the data were processed

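RNA of 4 livers, 1 per group, was measured on one-color Agilent arrays. Per the file headers, the deposited intensity values were background-subtracted and detrended within each array by Feature Extraction 10.7.1.1 (the submitters' processing notes give 9.5.1.1), are linear, and carry no normalization across arrays. A further table deposited by the authors holds normalized linear intensity values. Of its values, 99.6% lay within 0.01 on the log2 scale of a quantile normalization of the scanner signals, and its column medians are equal at 39.6. Its scale is linear and no centering or sign applies.

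Gene spots were put on the log2 scale relative to the 75th percentile of the array. Spots flagged as outliers were left out, which removed 37 probes. Names were updated by RefSeq accession (21025 of 22488 matched). A gene was read from the probe well above background on most arrays, then the brightest. A dim side was read at the higher of its own signal and the dimmest signal well above background on its array. Calls used a 2-fold threshold among genes with a signal well above background on either array of a pair. No p-value was computed, since each group has 1 array, and the number of arrays limits the precision. By their file names, all 4 arrays are from 1 slide. The members and gene lists were chosen with earlier results of these data known. Named are all members, any other subunit or assembly factor past 2-fold, and the 5 nearest profiles of each member spanning at least 1 log2 unit. Other list genes could be named if well above background somewhere, and those named were chosen after their values were seen, as were those named as dim on all arrays. Alternatives were other scalings, normexp with an offset of 50, the authors' table, other probe and filter rules and a 1.5-fold threshold. Tools were limma 3.58.1 in R 4.3.3, and numpy 2.4.6, pandas 2.3.3 and matplotlib 3.10.9 in Python 3.11.15.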

Additional observations from a re-analysis of the deposited data

Results flagged for a closer look

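The genotype difference of Cox6a2 had opposite signs in the 2 feeding states, at -1.35 after fasting and 3.20 after refeeding. With 1 array per group, each sign rests on a single pair of livers, and whether the 2 differences differ beyond the variation between mice was not tested. The signal of the refed Cont liver, 44.4 units, was near the dimmest signal called well above background there, 30.5 units, and the refed difference was 2.09 with normexp background correction.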

How the results depend on the processing

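The genotype differences of Cox8b, Cox7a1 and Cox6a2 kept their signs under 9 of 9 alternatives in each feeding state. They stayed past 2-fold under all of them except that, without scaling between arrays (added after seeing the data), the fasted differences of Cox7a1 and Cox6a2 were -0.97 and -0.70. Normexp gave -2.43 (fasted) and -0.99 (refed) for Cox8b against Cox8a and 2.46 for Cox6a2 against Cox6a1 after refeeding. Quantile normalization and the authors' table both gave -3.87 for Cox8b against Cox8a after fasting, -1.26 and 3.24 for Cox6a2 against Cox6a1 after fasting and refeeding, -0.27 for Cox4i2 against Cox4i1 after fasting, where the sign turned, and -0.12 for the fasted median of the other subunits. Without scaling, the medians were 0.21 and 0.19 for other subunits and 0.35 and 0.51 for assembly factors, fasted and refed. The median of 14447 genes was then 0.53 and 0.48. No paired analysis was possible because each group has 1 array and the labels give fewer than 2 shared replicate numbers. A model with genotype and feeding state would leave 1 residual degree of freedom and was not fitted, as the members were chosen on this contrast.

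Counts of genes called follow as higher and lower in the fasted genotype comparison, the refed genotype comparison, refeeding in Cont and refeeding in Drp1LiKO livers. As reported they were 779 and 909, 703 and 1105, 574 and 606, and 827 and 868. Normexp gave 326 and 545, 342 and 640, 363 and 264, and 462 and 370. Without scaling they were 3061 and 359, 2463 and 494, 361 and 1351, and 373 and 2526. At 1.5-fold they were 1778 and 2490, 1755 and 2676, 1594 and 1506, and 3077 and 2267. Among genes well above background on both arrays they were 469 and 570, 465 and 644, 246 and 351, and 527 and 567, and with no filter on dim probes 1758 and 1794, 1589 and 3468, 1846 and 1329, and 1828 and 1982. With the dim side at its own signal, higher calls were 1454 and 1404 for the genotype comparisons and lower calls 958 and 1311 for refeeding. In refeeding of Drp1LiKO livers, 48.8% of calls were higher, 59.1% with median scaling and 30.5% with the percentile over probes well above background on all arrays. The causes of these shifts were not tested.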

Other observations

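Genes of the fatty liver, among them PPARγ targets on lipid droplets, were listed because Cidea is among them, with its values known, so the counts are a description. All 9 were well above background on every array. After fasting, 2 were called lower in the Drp1LiKO liver (Cidea and Plin4) and 1 higher (Cidec), around a median of 0.01, where 5.04% of all genes were called lower and 4.32% higher. After refeeding, 4 were lower (Cidea, Plin4, Mogat1 and G0s2) and none higher, around a median of -0.67, where the shares were 6.33% and 4.03%. Cidea was -3.12 (SE 0.21) and -6.10 (SE 0.21), a larger refed than fasted difference, while for Cox8b the fasted difference was the larger. Pparg was 0.40 (SE 0.07) and -0.18 (SE 0.06).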
